A study of Mus musculus with 12 samples.

Results

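Olfr690, Olfr691 and Olfr692 are mouse class I odorant receptor genes at the far end of the class I cluster on chromosome 7. They were taken from the deposited table by their symbols, and all 3 were found, among 155 class I receptor genes and 46297 genes in all. The samples were olfactory mucosae of male mice at postnatal day 30 with the strain label 129S6;C57BL/6J. One group of 6 animals was wildtype, and the other group of 6 lacked enhancer A (eA), a 912 bp element on chromosome 7. The labels call the animals age matched and do not say whether the deletion was on both chromosomes. Nor does the mixed strain label say from which strain each animal's chromosome 7 came around these genes. The part of such strain differences in the results was not tested. Each animal gave 1 library of ribodepleted total RNA.

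Odorant receptors are G protein coupled receptors in the cilia of olfactory sensory neurons, where they activate a cyclic AMP cascade. Each mature neuron expresses mostly a single receptor gene, so the RNA of a receptor in whole mucosa depends both on how many neurons chose it and on how much RNA each holds. In these bulk samples fewer neurons per receptor and less RNA per neuron cannot be told apart. Class I receptors resemble fish receptors and include many that respond to carboxylic acids, the property by which these 3 genes are grouped here, and which expression data cannot check. Olfr692 has also been described in vomeronasal neurons of the mouse.

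The 3 genes lie within 41.1 kb and are the last of the continuous cluster. Coordinates are from GENCODE M21 on GRCm38, which the submitters' processing notes name, and the coordinates of the element were read in the same build. Olfr690 (ENSMUSG00000050266.6) is at chr7:105328225-105334104 on the minus strand, 2818 kb from the deleted element. Olfr691 (ENSMUSG00000043948.2) is at chr7:105335509-105342270 on the same strand, with a gap of 1.41 kb to Olfr690. Olfr692 (ENSMUSG00000073906.3) is at chr7:105368230-105369355 on the plus strand, a further 25.96 kb away. All 3 are annotated as protein coding, and 0 other annotated genes overlap any of them on either strand. The gene after Olfr692 is Fam160a2. Olfr693, the receptor that follows by number, lies 1306 kb beyond Olfr692 with 44 annotated genes in between. It was counted as class I by its number alone, and its class was not checked.

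The coding sequences show how different the 3 receptors are, which bears on whether reads could be shared between them. The first 60 coding bases of each, from GENCODE M21 transcripts, with the start codon as the first 3 letters, were:
Olfr690: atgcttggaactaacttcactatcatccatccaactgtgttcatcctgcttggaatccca
Olfr691: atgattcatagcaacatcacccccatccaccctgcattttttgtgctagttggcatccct
Olfr692: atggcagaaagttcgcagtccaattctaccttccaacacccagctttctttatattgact

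Over the aligned coding bases Olfr690 and Olfr691 were 68.6% identical. Olfr692 was 56.9% identical to Olfr690 and 56.2% to Olfr691, close to its 56.8% with the more distant Olfr693. The longest run of identical coding bases was 13 between Olfr690 and Olfr691 (cctttgatgcctg), 11 between Olfr690 and Olfr692, and 14 between Olfr691 and Olfr692 (acccatcgctttgg). No stretch of 50 exonic bases was shared between any of the 3 genes. Of all such stretches, 0 of 2278 in Olfr691 and 0 of 1077 in Olfr692 occurred in another annotated gene on either strand, and 13 of 2088 in Olfr690 did, in 444 other genes. How the authors counted reads that match several genes is not given in the sources used here.

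Upstream sequence is shown for Olfr692, because its RefSeq window adjoins the gene start in GENCODE. These are the 152 bases directly before that start, chr7:105368078-105368229 on the plus strand, from RefSeq (GRCm38.p6), with capitals for matches on either strand to TAATNA, a core that homeodomain factors such as Lhx2 bind:
Olfr692: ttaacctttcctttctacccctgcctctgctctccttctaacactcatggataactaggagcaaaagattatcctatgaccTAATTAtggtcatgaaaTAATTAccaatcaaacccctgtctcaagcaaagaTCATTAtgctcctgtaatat

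The 300-base RefSeq window of Olfr692, from 250 bases before to 50 bases after the RefSeq start, held 3 matches and those of Olfr690 and Olfr691 held 0. At least 1 match occurred in 61.1% of the windows of 108 class I receptor genes, in 65.8% of 946 receptor windows and in 26.4% of all 32544 windows. The core CCCNNGGG, bound by O/E (Ebf) factors, was found in 0 of the 3 windows and in 2.78% of the class I windows. The RefSeq starts of Olfr690 and Olfr691 lie at the coding exon, 3826 and 4556 bp from their outermost GENCODE starts, so their windows do not cover the start of the longest transcript. The GENCODE gene of Olfr692 is 1126 bp of exon throughout, so no exon further upstream is annotated. Whether its transcription begins at the annotated start was not tested. A match is a description of letters and not of binding.

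The libraries held 13011763 to 23039733 reads over genes, recovered from the table. Of the 12 libraries, 4 stood apart by holding more than 1% of their reads in the satellite gene Gm10800, namely wildtype libraries 2 and 3 and deletion libraries 3 and 6. Results are therefore given also for the other 8 alone.

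All 3 receptors had lower mean levels in the deletion, and 2 of them passed the test. Values are the authors' normalized counts, that is reads divided by a size factor of the library. Tests used limma on log2(value + 1) over 19373 genes with a mean of at least 10, deletion over wildtype, called at a Benjamini-Hochberg adjusted p under 5%. By this rule 0.341% of all genes and 54.3% of the 116 class I genes tested were lower. The 2 of 3 seen here is near the share in class I.

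Olfr690 ranged from 101 to 148 normalized counts in wildtype, with a median of 126, and from 42.6 to 88.9 in the deletion, with a median of 69.8. The groups did not overlap, and deletion libraries 3 and 4 were the lowest. The mean went from 126 ± 16.5 to 66.7 ± 18.3 (SD, n = 6 each), a change of -47.1%. The log2 change was -0.95 ± 0.17 (SE), with a limma adjusted p of 0.0172.

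Olfr692, the least abundant of the 3, ranged from 19.0 to 44.9 normalized counts in wildtype, with a median of 36.0, and from 6.73 to 18.3 in the deletion, with a median of 11.9. The groups did not overlap, though wildtype library 5 stood just above the highest deletion library. The mean went from 35.2 ± 9.66 to 12.3 ± 5.51, a change of -65.1%, and the log2 change was -1.51 ± 0.30 with a limma adjusted p of 0.0381. These values rest on 18 to 51 reads per wildtype library and 6 to 19 per deletion library.

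Olfr691 ranged from 92.5 to 125 normalized counts in wildtype, with a median of 107, and from 56.8 to 93.2 in the deletion, with a median of 75.4. The groups met only at wildtype library 1, which lay under deletion libraries 2 and 5. The means were 108 ± 10.99 and 77.3 ± 14.0, which is -28.5%. The log2 change of -0.49 ± 0.13 did not pass over all genes (limma adjusted p 0.273, unadjusted 0.00155). All 6 deletion libraries were below the wildtype mean for each of the 3 genes.

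**Figure D1:**
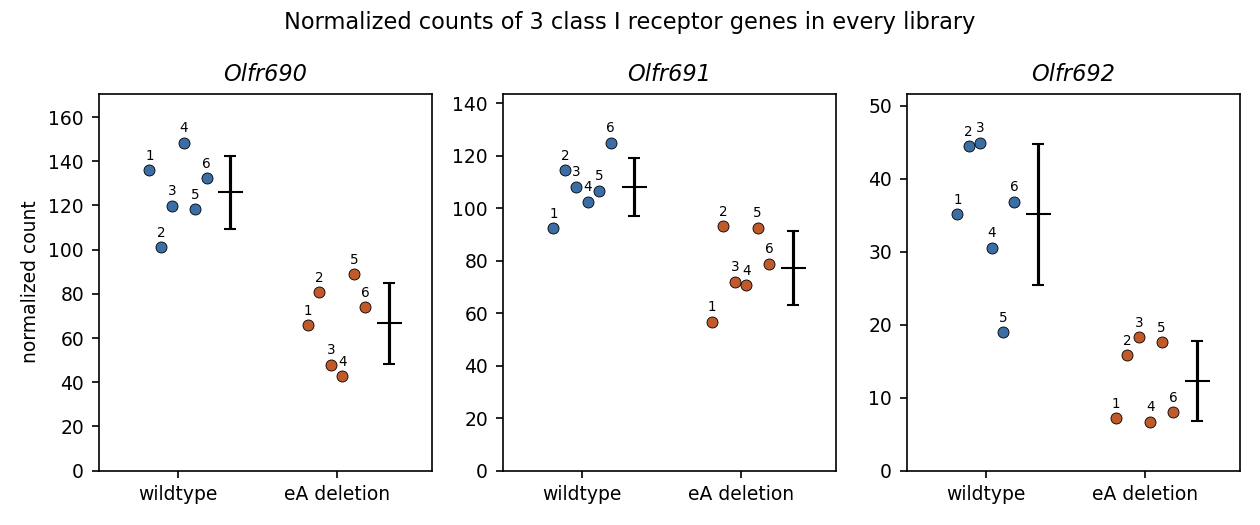
Normalized counts (y axis, from 0) of Olfr690, Olfr691 and Olfr692 in 6 wildtype and 6 eA deletion libraries; each point is 1 library with its number, and bars are the mean ± SD. The groups are apart for Olfr690 and Olfr692, while wildtype library 1 of Olfr691, at 92.5, lies just under deletion libraries 2 and 5.

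Complete separation with every deletion library below every wildtype library occurred in 0.444% of all genes tested and in 56.0% of the class I genes tested, so it too was common in the class. The authors' deposited table gives log2 values of wildtype over deletion. They are smaller in size than the changes found here and were taken to be shrunken, which the header does not say. There Olfr690 had 0.45 (authors' adjusted p 0.000133), Olfr692 had 0.33 (adjusted p 0.00251) and Olfr691 had 0.28 (adjusted p 0.185). On reads recovered from the table, edgeR's quasi-likelihood test, which called 0.33% of genes lower, gave adjusted p of 0.0152 for Olfr690, 0.0434 for Olfr692 and 0.305 for Olfr691. DESeq2, which called 0.262% lower, gave 0.000189, 0.00246 and 0.256.

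The calls of Olfr690 and Olfr692 were close to the threshold. That of Olfr690 was lost without wildtype library 4 (limma adjusted p 0.0616) or 6 (0.0535). That of Olfr692 was lost without any 1 of wildtype libraries 1, 2, 3, 4 and 6 and deletion libraries 1, 4 and 6, with adjusted p between 0.0849 and 0.130. With a mature neuron covariate the log2 change of Olfr692 was -1.14 and its call was also lost (adjusted p 0.218), while that of Olfr690 was kept (-1.02, adjusted p 0.0436). In each of the fits that left out a library and lost a call the log2 change stayed negative, between -0.93 and -0.90 for Olfr690 and between -1.53 and -1.37 for Olfr692.

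Among the 4 wildtype and 4 deletion libraries with little Gm10800 signal, Olfr690 had 134 ± 12.4 against 69.5 ± 20.4 normalized counts, Olfr691 107 ± 13.6 against 78.3 ± 17.8, and Olfr692 30.4 ± 8.04 against 11.8 ± 5.67. The log2 changes in these 8 libraries were -0.98, -0.46 and -1.36, and none passed (limma adjusted p 0.204, 1.00 and 0.598). In the 2 wildtype and 2 deletion libraries with more, the means were 110 and 60.9 for Olfr690, 111 and 75.4 for Olfr691, and 44.7 and 13.1 for Olfr692. The direction was the same in both sets for each gene.

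**Figure D2:**
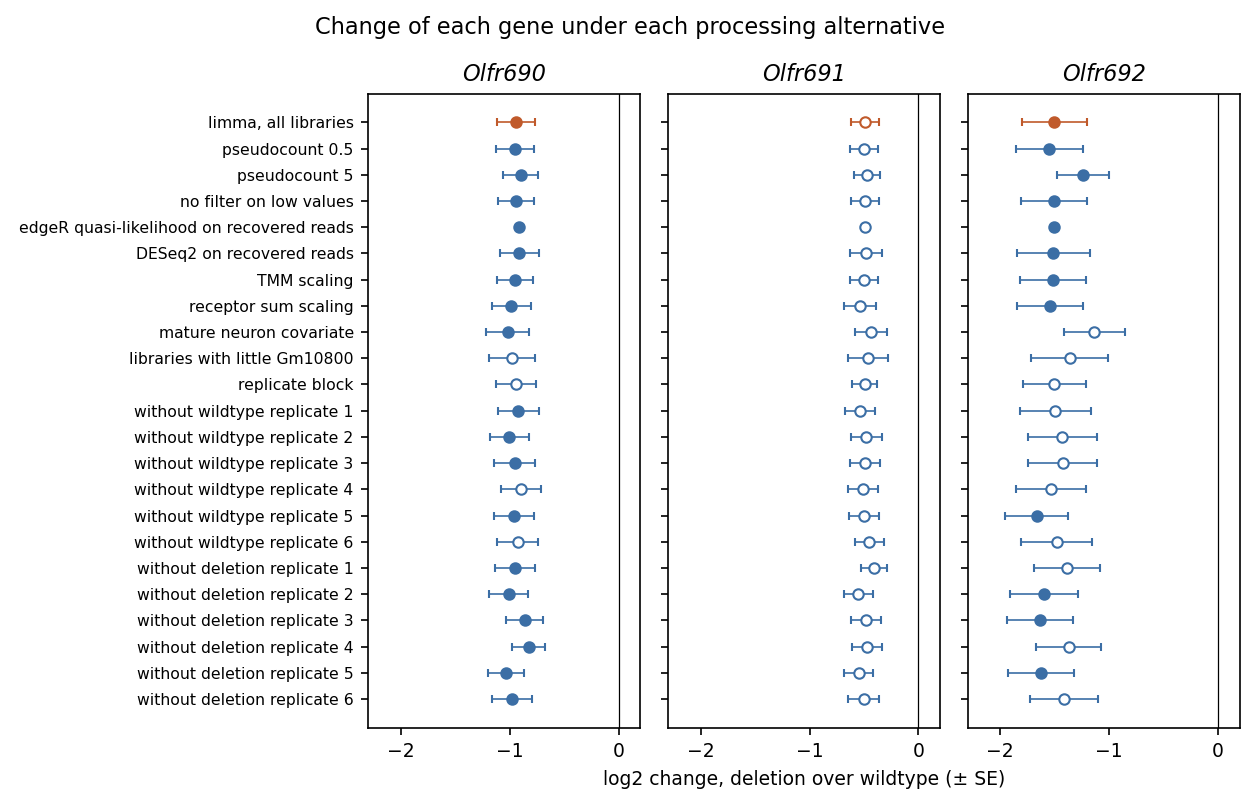
Log2 change of deletion over wildtype (x axis) of each gene under the test as reported and 22 alternatives (y axis); bars are the SE where the tool gives one, and filled points have an adjusted p under 5%. All estimates lie below 0, those of Olfr690 between -1.04 and -0.83, those of Olfr691 between -0.55 and -0.41 and those of Olfr692 between -1.67 and -1.14, and Olfr691 is never filled.

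Levels of different genes were compared per kilobase of annotated exon, as normalized counts per kb. In wildtype Olfr690 stood highest at 59.9 ± 7.85, followed by Olfr691 at 46.5 ± 4.72 and Olfr692 at 31.2 ± 8.58 (SD, n = 6). The range of Olfr690, from 48.0 to 70.6, overlapped that of Olfr691, from 39.7 to 53.7, and the highest library of Olfr692, at 39.9, lay just above the lowest of Olfr691. In the deletion the first and second places changed hands, with 33.2 ± 6.02 for Olfr691 and 31.7 ± 8.71 for Olfr690, a gap much smaller than either SD. Olfr692 had 10.9 ± 4.89 there, and its range stayed below those of the other two.

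Among the 116 class I genes tested, ordered by this level per kb, Olfr690 was 18th in wildtype and 34th in the deletion, Olfr691 went from 32nd to 29th and Olfr692 from 63rd to 69th. As a share of the summed class I signal, Olfr690 made up 0.903% ± 0.127 in wildtype and 0.707% ± 0.169 in the deletion. Olfr691 made up 0.775% ± 0.0907 and 0.822% ± 0.116, and Olfr692 0.249% ± 0.0611 and 0.130% ± 0.0588. Against the signal of all receptor genes of both classes, Olfr690 went from 0.0944% to 0.0484%, Olfr691 from 0.0815% to 0.0561% and Olfr692 from 0.0264% to 0.0089%. Together the 3 genes supplied 1.93% ± 0.134 of the class I signal in wildtype and 1.66% ± 0.268 in the deletion.

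To ask whether the 3 genes differed in how much they changed, the difference of their log2(value + 1) was taken within each library and compared between groups with an exact permutation test, two-sided, over every way to divide the 12 libraries into 6 and 6, with adjustment over 6 such tests. Olfr691 changed less than Olfr692. Their difference was 1.64 ± 0.435 in wildtype and 2.65 ± 0.501 in the deletion, larger by 1.01 ± 0.27 (SE), with 6 of 6 deletion libraries above the mean of the wildtype (exact p 0.00649, adjusted 0.0195). Among the 8 libraries with little Gm10800 signal it was larger by 0.90, with an adjusted p of 0.171. The smallest exact p there is 0.0286 before adjustment.

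The difference between Olfr690 and Olfr691, the neighbours on the same strand with the most similar coding sequences, went from 0.21 ± 0.28 to -0.24 ± 0.35, a shift of -0.45 ± 0.18 that missed the threshold (exact p 0.039, adjusted 0.0779). It passed without wildtype library 2 (adjusted exact p 0.039) or deletion library 1 (0.026). The difference between Olfr690 and Olfr692 shifted by 0.56 ± 0.33 (exact p 0.13, adjusted 0.195). Neither of these tests shows that the genes changed alike.

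Each gene was also set against the mean log2(value + 1) of the other 115 class I genes tested in the same library. For Olfr691 this difference went from 0.21 ± 0.17 to 0.92 ± 0.19, a shift of 0.72 ± 0.11, higher in 6 of 6 deletion libraries (exact p 0.00216, the smallest this design allows, adjusted 0.013). Against only those other class I genes with a mean of at least 50 the shift was 0.35 (adjusted exact p 0.0325). In the 8 libraries with little Gm10800 signal it was 0.65 (adjusted exact p 0.171). Olfr690 shifted by 0.26 ± 0.18 (exact p 0.177, adjusted 0.213), and this turned to -0.10 against the genes with a mean of at least 50. Olfr692 shifted by -0.30 ± 0.26 (exact p 0.275, adjusted 0.275). Ordered from the most negative log2 change, Olfr692 was 38th, Olfr690 58th and Olfr691 79th of the 116 class I genes tested. Less negative changes than that of Olfr691 thus occurred in other class I genes.

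**Figure D3:**
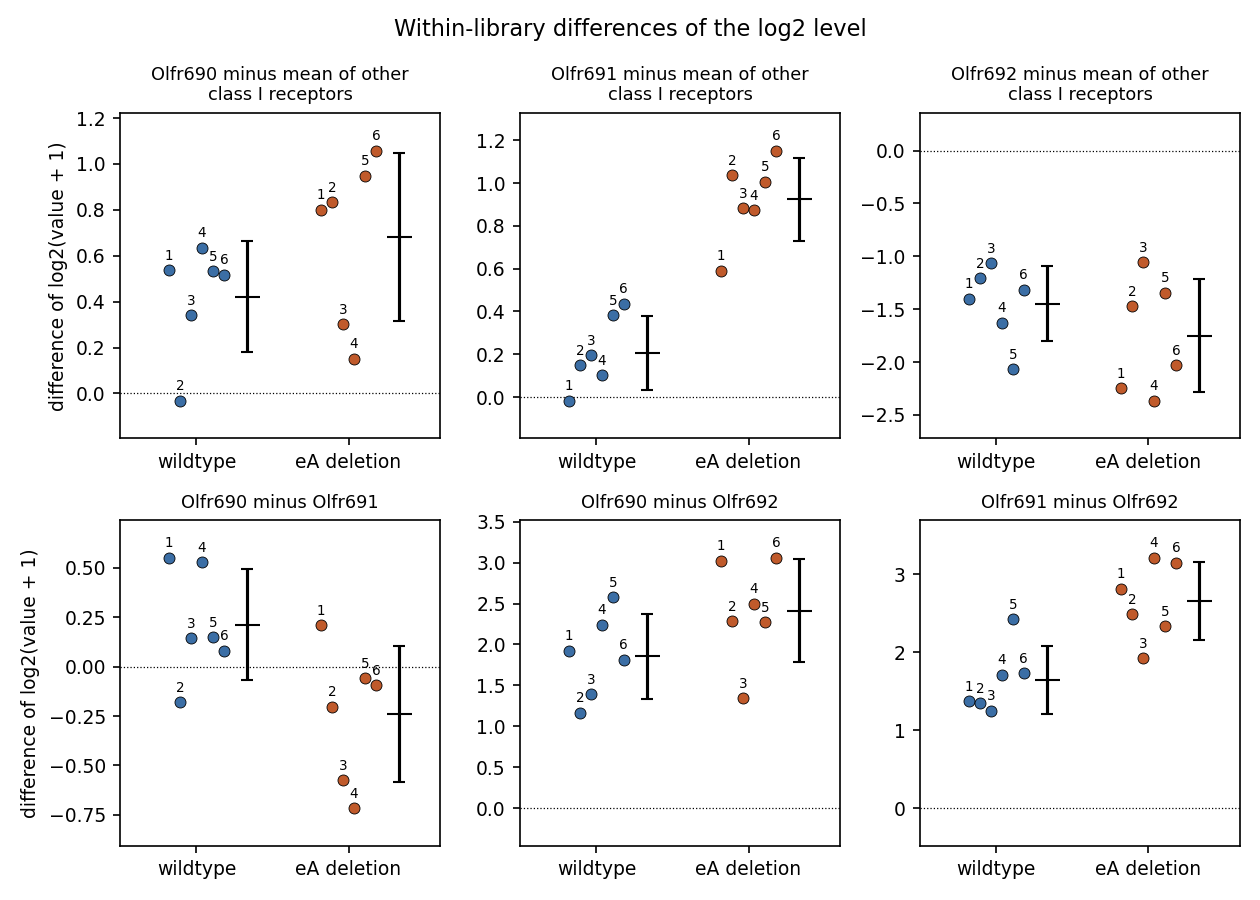
Within-library differences of log2(value + 1) (y axis) between each gene and the mean of the other class I genes tested (upper row) and between pairs of the 3 genes (lower row) in 6 wildtype and 6 eA deletion libraries; points are libraries with their numbers, and bars are the mean ± SD. The groups are apart for Olfr691 against its class, at 0.21 ± 0.17 and 0.92 ± 0.19, and overlap in the other 5 panels.

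The receptors with symbols from Olfr670 to Olfr693, counted as class I by symbol, were taken as the far end around the 3 genes. Olfr693 lies apart from the continuous cluster. Of the 21 others in this range 15 were tested, 8 were lower, 0 were higher and 7 did not pass, against 54.3% lower and 1.72% higher in class I as a whole and 0.031% higher among all genes. Their median log2 change was -0.62, beside -0.92 over class I and 0.0087 over all genes tested. Among them Olfr678 had the most negative log2 change, -2.37 ± 0.28 (limma adjusted p 0.00019), from 32.7 to 5.91 normalized counts. The count of 8 was 1 among the libraries with little Gm10800 signal, and 4 without wildtype library 2 and 5 without wildtype library 3 or 4.

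The tested receptors nearest to the 3 genes on the side of the element did not pass. Olfr689, 8.56 kb before Olfr690, had mean normalized counts of 209 ± 25.6 in wildtype and 186 ± 30.2 in the deletion, a log2 change of -0.18 ± 0.12 (limma adjusted p 0.789). Olfr686, 121 kb before Olfr690, had 113 ± 32.3 and 97.5 ± 14.2, a log2 change of -0.16 ± 0.19 (adjusted p 0.868). On the far side the sole tested gene counted as class I was Olfr693, 1306 kb beyond Olfr692. It had 317 ± 25.5 and 378 ± 48.6 normalized counts and a log2 change of 0.25 ± 0.086 (limma adjusted p 0.657, unadjusted 0.011). The difference between these neighbours and the 3 genes was not tested.

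**Figure D4:**
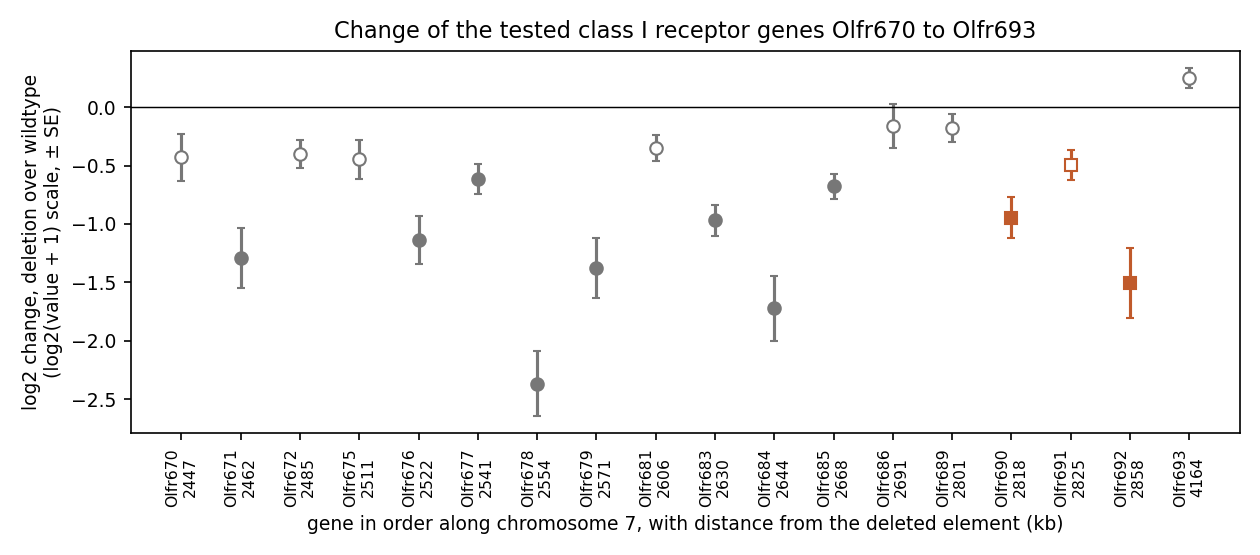
Log2 change of deletion over wildtype (y axis, log2(value + 1) scale, ± SE) of the 18 tested receptor genes from Olfr670 to Olfr693, counted as class I by symbol. Genes are in order along chromosome 7 with the distance from the deleted element in kb (x axis). Squares are Olfr690, Olfr691 and Olfr692, circles the others, and filled symbols have a limma adjusted p under 5%. The changes run from -2.37 for Olfr678 to 0.25 for Olfr693.

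Receptors with reported acid ligands elsewhere in the cluster lie much closer to the element. Olfr544, a receptor for azelaic acid at 21.4 kb, had a log2 change of -3.64 ± 0.25, and Olfr545, at 10.1 kb, one of -3.94 ± 0.53. Olfr558, a receptor for short branched acids at 192 kb, went from 87.2 ± 16.8 to 34.7 ± 8.06 normalized counts (log2 change -1.32 ± 0.18, limma adjusted p 0.00079). Olfr78, a receptor for short-chain acids at 228 kb that is also expressed outside the nose, had a log2 change of -0.018 ± 0.13. Thus 3 of these 4 were lower, beside 54.3% of the class I genes tested and 0.341% of all genes. The fourth, Olfr78, did not pass. Its estimate was closer to 0 than that of Olfr691 at 2825 kb.

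None of the listed genes of the machinery that receptors use in olfactory neurons passed the test. Over all genes tested 0.341% were called lower and 0.031% higher, so 0 calls is usual for lists this short, here and below. Of 12 signalling genes, among them Gnal, the G protein subunit that couples receptors to adenylyl cyclase, 0 were called, with a median log2 change of 0.057. The same held for 0 of 3 receptor trafficking genes, with Rtp1 at 0.13 ± 0.069, for 0 of 12 regulators of receptor choice, with Lhx2 at 0.071 ± 0.057, and for 0 of 6 zone genes. Of these, the dorsal marker Nqo1 had the lowest log2 change, -0.22 ± 0.105. The ventral marker Nfix had the highest, 0.32 ± 0.098 (unadjusted limma p 0.00514, adjusted 0.524). The other dorsal marker had -0.029, and the other ventral markers had -0.094 to 0.012, with a median of -0.014 over the 6. The part of the zone genes in the receptor results was not tested. At an unadjusted limma p under 0.05 stood 1, 0, 0 and 2 genes of these lists, and edgeR and DESeq2 each called 0. Of the 10 mature neuron markers, Omp among them, 0 were called and 1 had an unadjusted limma p under 0.05. All 10 had estimates above 0, with a median log2 change of 0.094. They were detected in every library, with sums of 156598 to 193131 normalized counts in wildtype and 169382 to 195495 in the deletion.

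Vomeronasal markers were examined because of the known expression of Olfr692. Of 8 in the table, 3 were tested and 0 were called, with 0 at an unadjusted limma p under 0.05 and 0 called by edgeR or DESeq2, and Trpc2 was not analysed here. The 3 tested had log2 changes from -0.20 to 0.15, with a median of -0.0089, 2 of them negative and 1 positive. None of the 8 was at 0 in every library. The 5 vomeronasal receptor genes on the list, all too low to test, summed to 15.2 to 91.6 normalized counts in wildtype and 8.97 to 30.8 in the deletion. All 5 of these receptor genes, unlike the 3 tested markers, had lower means in the deletion, with ranges that overlapped between the groups. Wildtype and deletion means were 12.5 and 2.56 for Vmn1r43, 6.67 and 3.10 for Vmn1r51, and 9.34 and 4.63 for Vmn2r1. For Vmn2r2 the means were 8.30 and 6.12, and for Vmn2r26 4.03 and 2.41. The sums were highest in wildtype libraries 2 and 3, at 91.6 and 62.2, which also had the highest Olfr692 values, 44.4 and 44.9. In the deletion, libraries 3 and 6 had the highest sums, 30.8 and 29.9, with 18.3 and 7.99 for Olfr692. These 4 libraries are those with more than 1% of their reads in Gm10800. They also detected more genes, 36565 to 42218 against 28832 to 33895 in the other libraries. Wildtype library 6, with the lowest wildtype sum of 15.2, had 36.9 for Olfr692, so the order of the libraries was only partly shared. The part of the vomeronasal signal in the Olfr692 result was not tested.

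The 9 other marker lists, from immature neurons to immune cells, also held 0 calls by limma, edgeR or DESeq2, with at most 1 gene per list at an unadjusted limma p under 0.05. The widest spread of log2 changes was among the Bowman's gland genes, from -1.52 for Obp1b (unadjusted limma p 0.019, adjusted 0.702) to 1.65 for Bpifb9a (unadjusted 0.116, adjusted 0.773), with 0.071 ± 0.098 for Sox9, and the summed level of that list ranged from 8923 to 59628 normalized counts in wildtype and from 8447 to 117653 in the deletion; its part in the receptor results was not tested. The sums per list overlapped between the groups in each of these lists.

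Within groups the 3 genes varied only loosely together. After subtraction of each group's mean, Pearson's r over the 12 libraries was 0.38 between Olfr690 and Olfr691, 0.19 between Olfr690 and Olfr692 and 0.52 between Olfr691 and Olfr692, given as descriptions. None of the 3 was among the 3 genes most like another. Among 19372 candidates, the most similar to Olfr690 were Ugp2 (r 0.95), Lmbr1 (0.95) and Mtmr2 (0.94). To Olfr691 they were Slc2a8 (0.91), Ankrd45 (0.90) and Timp4 (0.89), and those to Olfr692 included the agouti gene a (0.88) and Sh3d21 (0.88). None of these 8 genes passed the test between groups, and with so many candidates high values arise easily over 12 libraries.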

How the data were processed

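Olfactory mucosa RNA of 12 mice was sequenced. Per the submitters' processing notes the authors used STAR 2.6.0, DESeq2 and GRCm38.p6. For the read counter and the annotation release, the sources used here name nothing. The deposited table holds, per the file headers, normalized counts (a never negative signal) for 12 libraries, and the authors' log2 fold change with its standard error, test statistic (a score), p-values and adjusted p-values. In each library the values step by a constant amount per read, which let reads be recovered: at least 99.989% came out whole within 0.01. They sum to 13011763 to 23039733 per library, and 0 library pairs were identical.

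Since the deposited signal is not raw counts, log2(value + 1) was tested in limma 3.58.1 (trend option), a scale that understates changes of low genes. edgeR 4.0.16 and DESeq2 1.42.0 on recovered reads were alternatives. Software was R 4.3.3, Python 3.11.15, scipy 1.17.1 and Biopython 1.88. Class I genes were taken by symbol (Olfr543 to Olfr693, with Olfr78, Olfr33 and Olfr64 to Olfr69). Olfr693, outside the continuous cluster, was thus counted among them without a check of its class. The limma and edgeR fits were tested on simulated counts. The p-values set a difference between groups against the spread between libraries, with 1 library per animal.

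Named were the 3 genes, the 2 nearest tested genes counted as class I on each side (only 1 beyond Olfr692) and Olfr693. Also named were 3 most similar genes each, 4 other acid receptors and first genes of lists, the last partly as ranges. Olfr678, Nfix, Obp1b and Bpifb9a were picked once their values were known. From this rule 2 genes are not reported here. The members, lists and tests were chosen with earlier results of these data known.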

Additional observations from a re-analysis of the deposited data

Results flagged for a closer look

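For the genes named here, 62 groups of 6 libraries were checked for a highest or lowest library set apart from the rest by more than Dixon's critical value for 6 samples, which chance gives in about 1 of 20 groups. There was 1 such library, and it was not for Olfr690, Olfr691 or Olfr692. Deletion library 6 had 3.99 normalized counts of Olfr545, above the other deletion libraries.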

How the results depend on the processing

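Each of the log2 changes of the 3 genes was recomputed under 22 alternatives and stayed negative. Olfr691 passed under 0 of them. With the replicate number as a block the changes of Olfr690 (-0.95) and Olfr692 (-1.51) no longer passed (limma adjusted p 0.0876 and 0.0847), the count of other far-end receptors lower was 5, and the shifts of Olfr691 against Olfr692 (1.01) and against its class (0.72) did not pass (adjusted exact p 0.125 and 0.0938, where 6 pairs allow no unadjusted p under 0.0312). Same-numbered libraries deviated together with correlations of -0.15 to 0.36, and 1 of 6 wildtype libraries correlated best with its own number, so the numbers were not taken as pairs. In the libraries with little Gm10800 signal, 4 against 4, values were -0.98 for Olfr690, -1.36 for Olfr692, and 0.90 and 0.65 for the same shifts of Olfr691, none of which passed, and the count was 1. With a mature neuron covariate Olfr692 had -1.14 (limma adjusted p 0.218) and the count was 4. Against class I genes with a mean of at least 50 the shift of Olfr690 reversed to -0.10. The causes of these differences between settings were not tested.

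Leaving out 1 library at a time gave -1.04 to -0.83 for Olfr690, -0.55 to -0.41 for Olfr691, -1.67 to -1.37 for Olfr692, and counts of 4 to 8. The shift between Olfr690 and Olfr691 was -0.54 to -0.36, that between Olfr691 and Olfr692 0.90 to 1.17, and that of Olfr691 against its class 0.67 to 0.78. The 2 other shifts against the class, and that between Olfr690 and Olfr692, passed under 0 alternatives. The low read numbers of Olfr692, 6 to 19 per deletion library, limit its precision.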
